A study of Mus musculus with 18 samples.

Results

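Dendritic cell lineage genes were examined in epididymal white adipose tissue (eWAT) of mice fed a high-fat diet (HFD). The 10 genes were taken by their symbols, and all 10 were found among the 21756 genes of the adipocyte Parkin experiment and among the 27356 genes of the Nqo1 vector experiment. They were Flt3 and Zbtb46 as genes of conventional dendritic cells in general, Irf8, Batf3, Xcr1 and Clec9a for the type 1 subset, Irf4 and Cd209a for the type 2 subset, Siglech for plasmacytoid dendritic cells and Ccr7 for migratory cells. The first experiment compared 5 ParkinAdi mice, in which Adiponectin-Cre deletes floxed Parkin in adipocytes, the cells in which this promoter is active, with 5 Control f/f mice, floxed controls by their label. These were male C57BL/6J mice of about 4 to 6 months on a 45% HFD. In the second experiment wild-type males of 2 months received 4 weeks of HFD, then AAV8-Nqo1, expressed from an adiponectin promoter, in one eWAT pad and AAV8-Control in the other, with tissue taken 4 weeks later (4 pads per vector by the labels).

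Dendritic cells take up antigen in tissues and present it to T cells. They arise from bone marrow progenitors that need the cytokine Flt3 ligand, and they split into conventional type 1 cells, which need the transcription factors IRF8 and BATF3 and cross-present antigen to CD8 T cells, conventional type 2 cells, many of which need IRF4, and plasmacytoid cells, which release type I interferon. In fat they are few among many macrophages, and several of their genes are also used by macrophages, monocytes or B cells. Whole tissue was sequenced, so fewer cells of a type and less RNA per cell cannot be told apart.

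The values of the Parkin experiment were regularized log (rlog) values, which are on a log2 scale and are shrunk most for genes with few reads. The mice are called P1 to P5 (ParkinAdi) and C1 to C5 (Control f/f). Library P2 held the epididymis gene Ces5a at 20.05, against 5.59 to 8.45 in the other libraries, and the mean of 6 epididymis markers was 10.35 in P2 and 9.57 in P5, against 5.22 to 6.90 in the other libraries, so values without P2 and without P5 are given below where they bear on a result. Nqo1 lay at 7.67 to 9.54 in ParkinAdi (P2 highest) and at 7.46 to 8.22 in Control f/f. The adipocyte genes Fabp4 and Adipoq were high in every library, at 18.07 to 19.91 and 16.03 to 17.99 in ParkinAdi and at 18.26 to 19.90 and 15.91 to 17.90 in Control f/f. The libraries also fell into 2 sets by transcript length. In set A (P1, P2, P5, C1, C2 and C3) longer transcripts were relatively high, with a Spearman correlation across genes of 0.376 to 0.51, and in set B (P3, P4, C4 and C5) they were relatively low, at -0.537 to -0.469. Both genotypes were in both sets, so each difference is given within each set as well, with 3 against 3 libraries in set A and 2 against 2 in set B. The labels mention 2 pools of libraries without saying which library was in which, and they do not say that these are the sets.

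Irf8 was the member with the clearest difference between the genotypes. Its product, interferon regulatory factor 8, is required for type 1 and plasmacytoid dendritic cells and is also made by monocytes, macrophages and B cells. Irf8 had rlog values of 8.71, 8.57, 8.92, 8.44 and 8.54 in ParkinAdi mice P1 to P5, against 9.71, 9.35, 8.78, 9.12 and 9.52 in Control f/f mice C1 to C5. Of the ParkinAdi libraries 4 of 5 lay below the lowest control, which was C3, and only P3 lay above it. The ParkinAdi mean was 8.64 ± 0.18 and the Control f/f mean 9.29 ± 0.36 (SD, n = 5 each), a difference of -0.66 (SE 0.18, 95% interval -1.05 to -0.26). An exact permutation test of this single gene over the 10 libraries gave p = 0.0159 (two-sided). This was the smallest p of 10 such tests, one per member, added after the data were seen, and it is not adjusted for that choice. The other members had p from 0.111 (Xcr1) to 0.786 (Ccr7) in the same test. In limma, Irf8 had rank 112 by p among the 19012 genes tested and an adjusted p of 0.62 over all of these genes by Benjamini-Hochberg, so the difference did not pass the threshold. At least 4 ParkinAdi libraries below the lowest control was found for 3.04% of all genes tested. The difference in Irf8 was -0.64 without P2 and -0.63 without P5.

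The same difference was present in both library sets. In set A the 3 ParkinAdi libraries reached at most 8.71 and the 3 Control f/f libraries at least 8.78, a difference of -0.67 (SE 0.23, adjusted p = 0.95). In set B P3 and P4 had 8.92 and 8.44, against 9.12 and 9.52 in C4 and C5, a difference of -0.63 (SE 0.21, adjusted p = 0.26). Irf8 was the only member that lay lower in ParkinAdi without overlap in both sets, and 2.48% of all genes tested did so. When the limma fit also held the library set, the adjusted p for Irf8 was 0.20.

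Irf8 lies on chromosome 8 at chr8:120736358-120756694 (GRCm38, plus strand), with 7.05 kb of exon, and a second protein-coding model, Gm20388, overlaps it on the same strand, so reads of the 2 models may be split. The 250 bases before its start in RefSeq (GRCm38.p6, chr8:120736108-120736357, plus strand) are shown because Irf8 carried the largest difference, and those of Batf3 (chr1:191098164-191098413, plus strand) because it is the partner factor of the type 1 subset. The capitals mark matches to the interferon-gamma-activated sequence (GAS) TTCNNNGAA, an element through which interferon gamma is known to induce Irf8.
Irf8: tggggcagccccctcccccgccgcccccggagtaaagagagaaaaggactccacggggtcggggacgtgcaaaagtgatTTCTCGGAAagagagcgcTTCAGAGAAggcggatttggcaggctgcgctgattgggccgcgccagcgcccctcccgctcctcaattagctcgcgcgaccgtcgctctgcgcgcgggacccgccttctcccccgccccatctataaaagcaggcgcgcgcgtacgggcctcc
Batf3: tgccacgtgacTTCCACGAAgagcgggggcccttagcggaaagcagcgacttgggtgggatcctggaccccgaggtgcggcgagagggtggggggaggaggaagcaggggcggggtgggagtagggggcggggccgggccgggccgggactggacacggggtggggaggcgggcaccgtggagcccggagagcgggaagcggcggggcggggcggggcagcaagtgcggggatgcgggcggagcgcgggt
The Irf8 matches began 171 and 153 bases before the start, and the Batf3 match 239 bases before it. A GAS match was found in 7.02% of the 32851 mouse promoters of this length and at least 2 in 0.317%. Promoters of 9 members were matched, and Siglech also held 1 GAS match, 123 bases before its start. The AP-1 site TGANTCA, which BATF-family dimers bind, was searched as well. It had a match only in Zbtb46, 61 bases before its RefSeq start (window chr2:181424389-181424638, minus strand), against 6.75% of all promoters. That start lies inside the longer Zbtb46 gene model used for exon length (chr2:181387762-181459426), so this window is not upstream of the whole gene. The Batf3 window also lies inside its gene model (chr1:191097847-191108945). Both motifs read the same on either strand and none of the matches overlapped. A second start listed for Irf8 held neither motif. These are matches of letters only.

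**Figure D1:**
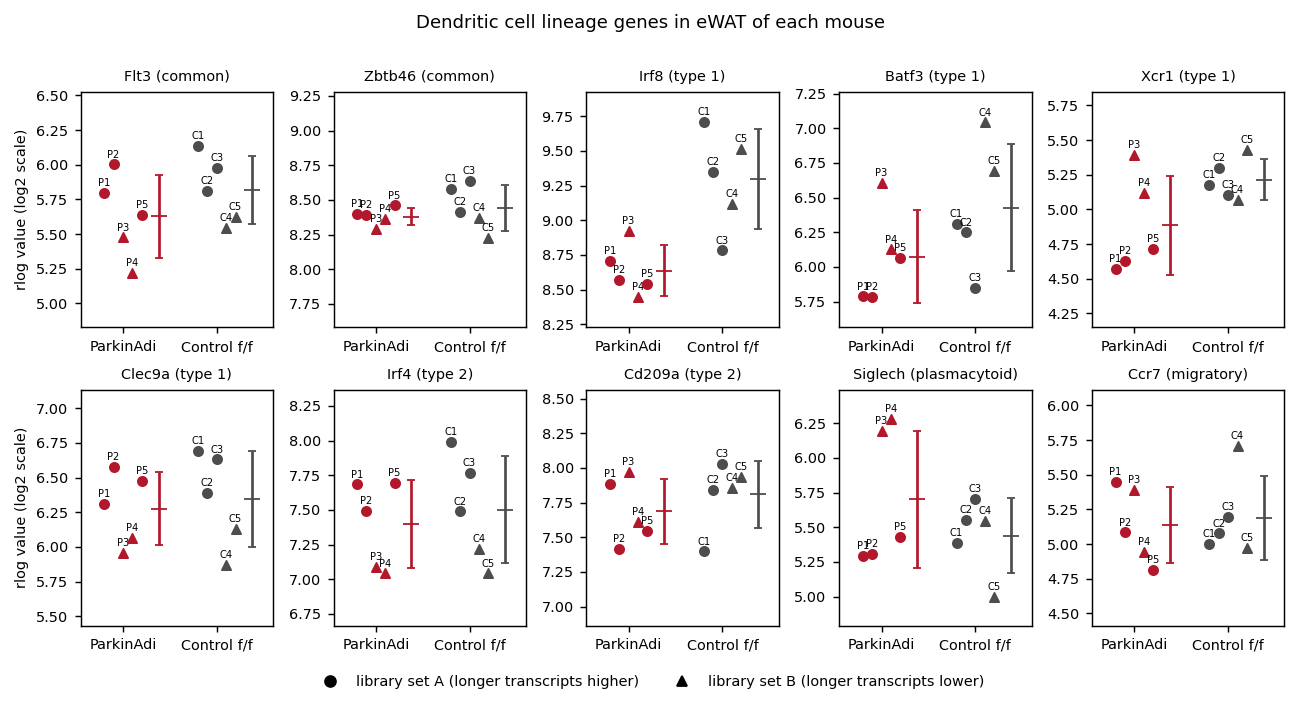
Rlog value (log2 scale) of each dendritic cell lineage gene in each mouse, ParkinAdi left and Control f/f right, with circles for library set A, triangles for set B and bars for the mean ± SD (n = 5 each). Each panel spans the same height. Irf8 has 4 of 5 ParkinAdi libraries below the lowest Control f/f library, while Siglech is highest in P3 and P4 and Flt3, Clec9a and Irf4 separate by library set.

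The other genes of the type 1 subset had smaller differences. Batf3, whose product pairs with JUN proteins and IRF8 in type 1 cells, had 5.79, 5.79, 6.61, 6.13 and 6.07 in P1 to P5, against 6.31, 6.25, 5.85, 7.04 and 6.69 in C1 to C5. The groups overlapped, with C3 again the lowest control and P3 the highest ParkinAdi library. The difference was -0.35 (SE 0.25, 95% interval -0.90 to 0.19, adjusted p = 1). It ranged from -0.50 without C3 to -0.20 without C4 when single mice were left out. It was -0.26 in set A and -0.50 in set B, where P3 and P4 lay below both controls. The adjusted p in the fit that held the library set was 0.41. In that fit Batf3 and Irf8 were the 2 members with an unadjusted p under 0.05, as had 2236 of the 19012 genes.

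Xcr1, the receptor for the chemokine XCL1 and a marker that is largely restricted to type 1 cells, had 4.57, 4.63, 5.39, 5.12 and 4.71 in P1 to P5, against 5.17, 5.30, 5.10, 5.07 and 5.43 in C1 to C5. P1, P2 and P5, all of set A, lay below every control, and P3 and P4, both of set B, lay within the controls. The difference was -0.33 (SE 0.19, 95% interval -0.76 to 0.10, adjusted p = 1) in all libraries, -0.55 (SE 0.17, adjusted p = 0.95) in set A, where the genotypes did not overlap, and 0.01 (SE 0.25) in set B. Over all libraries it was -0.265 without P2 and -0.287 without P5. P2 and P5, the libraries with high epididymis markers, both belong to set A. The difference between the 2 sets was 0.56 (SE 0.28, adjusted p = 0.93 for the interaction in limma), so the sets were not shown to differ. Clec9a, the receptor by which type 1 cells sense dead cells, had 6.31, 6.58, 5.95, 6.07 and 6.48 in P1 to P5, against 6.69, 6.39, 6.63, 5.87 and 6.13 in C1 to C5. The genotypes overlapped throughout, with a difference of -0.07 (SE 0.20, 95% interval -0.51 to 0.38, adjusted p = 1). Clec9a overlaps Clec1b and Gm43914 on the same strand, and its reads may include some of theirs. The 4 type 1 genes thus had differences from -0.66 (Irf8) to -0.07 (Clec9a), and no test between genes was made.

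Flt3 and Zbtb46, genes of conventional dendritic cells in general, differed little. Flt3, the receptor for Flt3 ligand, had 5.80, 6.002, 5.48, 5.22 and 5.64 in P1 to P5, against 6.13, 5.81, 5.98, 5.54 and 5.62 in C1 to C5. The genotypes overlapped, with a difference of -0.19 (SE 0.19, 95% interval -0.61 to 0.23, adjusted p = 1). It ranged from -0.28 without P2 to -0.09 without P4 when each mouse was left out in turn. In set B P3 and P4 lay below both controls, with a difference of -0.24. Zbtb46, a transcription factor that marks conventional dendritic cells and is also made by endothelial cells, was the steadiest member. It had 8.399, 8.39, 8.29, 8.36 and 8.46 in P1 to P5, against 8.58, 8.41, 8.64, 8.37 and 8.22 in C1 to C5, and all 5 ParkinAdi values fell inside the Control f/f range. The difference was -0.06 (SE 0.12, 95% interval -0.32 to 0.19, adjusted p = 1). A gene on the other strand, Gm26597, overlaps Flt3, and Gm22708 lies within Zbtb46, and the sources used here do not say if reads were counted by strand.

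The type 2 genes Irf4 and Cd209a overlapped between the genotypes in both sets. Irf4 encodes the factor needed by many type 2 cells and is also made by alternatively activated macrophages, plasma cells and adipocytes. It had 7.68, 7.495, 7.09, 7.04 and 7.70 in P1 to P5, against 7.99, 7.49, 7.76, 7.22 and 7.04 in C1 to C5, a difference of -0.10 (SE 0.22, 95% interval -0.58 to 0.38, adjusted p = 1). The 4 libraries of set B were the 4 lowest, whatever the genotype. Cd209a, a lectin receptor of type 2 and monocyte-derived dendritic cells, had 7.88, 7.42, 7.97, 7.61 and 7.54 in P1 to P5, against 7.40, 7.84, 8.03, 7.85 and 7.93 in C1 to C5. Of the controls 4 of 5 lay at 7.84 or above and C1 was the lowest library of all, and the difference was -0.13 (SE 0.16, 95% interval -0.49 to 0.24, adjusted p = 1).

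Siglech, a surface lectin of mouse plasmacytoid cells that some tissue macrophages also carry, was the only member with a positive difference. It had 5.29, 5.31, 6.19, 6.28 and 5.43 in P1 to P5, against 5.39, 5.55, 5.70, 5.55 and 4.996 in C1 to C5. P3 and P4 stood above every other library, and P1, P2 and P5 lay within or below the controls of their set. The difference was 0.27 (SE 0.25, 95% interval -0.28 to 0.81, adjusted p = 1), made of -0.20 (SE 0.17) in set A and 0.97 (SE 0.25, adjusted p = 0.22) in set B without overlap. It was 0.12 without P4, 0.14 without P3, 0.155 without C5 and 0.37 without P1. The difference between the sets was 1.17 (SE 0.30, adjusted p = 0.93 for the interaction in limma), so the sets were not shown to differ here either. Ccr7, the chemokine receptor that guides mature dendritic cells to lymph nodes and is also carried by naive T cells and B cells, had 5.45, 5.08, 5.39, 4.95 and 4.81 in P1 to P5, against 4.9996, 5.08, 5.19, 5.71 and 4.97 in C1 to C5. The groups overlapped widely, with a difference of -0.05 (SE 0.20, 95% interval -0.50 to 0.39, adjusted p = 1).

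**Figure D2:**
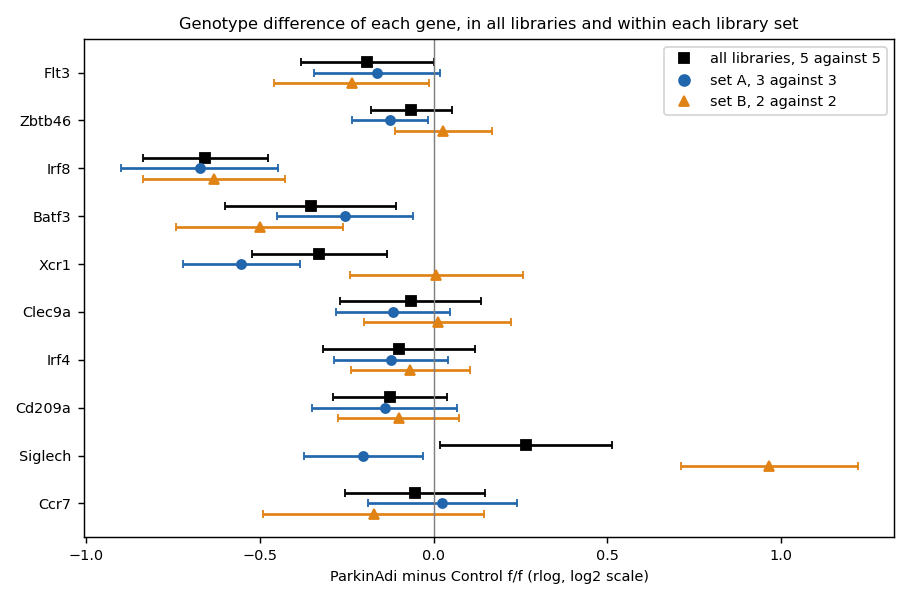
Difference of each gene, ParkinAdi minus Control f/f, in rlog units (log2 scale), with its standard error from limma, in all libraries (squares), in set A (circles) and in set B (triangles). Irf8 lies near -0.66 in all 3, Xcr1 is at -0.33 in all libraries, -0.55 in set A and 0.01 in set B, and Siglech is below 0 in set A and at 0.97 in set B.

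Across the 10 genes, none passed an adjusted p of 0.05 (0% of the 19012 genes tested passed). Limma gave an unadjusted p under 0.05 for 677 lower and 278 higher genes of these 19012. A share of 0.05 of the genes is expected at that level when no gene differs. One member (Irf8) was lower at an unadjusted p under 0.05, as were 3.56% of all genes, and none was higher at that level, where 1.46% of all genes were. The difference was below 0 for 9 of the 10 members and for 43.1% of all genes, with a median of -0.11 over the members and 0.03 over all genes. It was below 0 for 9 members also without P2, for 8 without P5, for 7 without C1, for 9 in set A, for 6 in set B and for 5 in both sets (4810 of 19012 genes). No member lay apart between the genotypes over all 10 libraries, where 0.757% of all genes were lower and 0.305% higher in ParkinAdi without overlap. In set A 2 members (Irf8 and Xcr1) were lower without overlap, against 5.29% of all genes. In set B, with 2 libraries each, 3 members (Irf8, Batf3 and Flt3) were lower and 1 (Siglech) higher without overlap, against 24.2% and 25.9% of all genes, shares near the background.

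For several members the difference between the library sets was larger than that between the genotypes. Set B minus set A was -0.59 for Irf4 (4.9 kb of exon), -0.51 for Clec9a (3.29 kb), -0.43 for Flt3 (6.18 kb) and -0.17 for Zbtb46 (8.51 kb), and these 4 members did not overlap between the sets, as did 22.7% of all genes in this direction. No member was higher in set B without overlap, against 23.7% of all genes. The short Batf3 (1.6 kb) had 0.61, Xcr1 0.34, Siglech 0.31, Cd209a 0.16 and Ccr7 0.15, and Irf8, although 7.05 kb long, had 0.06. With the trend of each library with transcript length removed the genotype differences were -0.64 for Irf8, -0.36 for Batf3, -0.31 for Xcr1 and 0.28 for Siglech, an alternative chosen after the data were seen.

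Macrophage markers were read beside Irf8, and none passed the adjusted threshold. Of 14 macrophage markers 13 had a difference below 0, against 43.1% of all genes tested. At an unadjusted limma p under 0.05, 6 were lower, against 3.56% of all genes tested. The median of these markers was -0.45, with -0.59 in set A, -0.21 in set B, -0.35 without P2 and -0.37 without P5. Their mean rlog was 9.83 to 10.45 in ParkinAdi and 10.22 to 10.80 in Control f/f, with P3 the highest ParkinAdi library and C3 the lowest control, as for Irf8. Of 10 genes of lipid-associated macrophages all had a difference below 0, and 7 were lower at an unadjusted limma p under 0.05. The median of these genes was -1.03, with -0.93 in set A, -0.81 in set B, -0.86 without P2 and -1.09 without P5. Their means were 10.38 to 10.75 in ParkinAdi and 10.72 to 12.13 in Control f/f. The 2 highest markers of each list, Lyz2 and C1qb, and Lpl and Plin2, had differences of -0.48, -0.51, -0.09 and -0.69. Lpl had a mean rlog of 18.06, between the adipocyte genes Fabp4 (19.11) and Adipoq (16.97). Which cells the Lpl and Plin2 reads came from was not tested. The part of macrophages in the difference of Irf8 was not tested. The 3 genes whose values ran closest to those of Irf8 over the 10 libraries were Slc15a3 (r = 0.988), Cd300lb (0.982) and Igsf6 (0.982), given as a description of libraries that share depth and composition.

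The list means of lymphocyte markers were highest in P3, but not every marker was. Of the T and B cell markers named below, Cd79b was highest in P3 (7.03). Il7r (6.96) and Trac (5.90) in P3 lay below every control, and Cd22 in P3 had 4.22, against 4.21 to 6.39 in Control f/f. The mean of 14 T and NK cell markers was 5.14 to 6.08 in ParkinAdi and 5.37 to 5.75 in Control f/f, and that of 6 B cell markers 3.87 to 5.07 in ParkinAdi and 4.02 to 4.52 in Control f/f, with P3 at the top of both. Within these lists 9 of 14 and 2 of 6 differences were below 0, with medians of -0.04 and 0.05. The sets ran in opposite directions, with medians of -0.29 in set A and 0.38 in set B for the T and NK cell markers, and of -0.23 in set A and 0.37 in set B for the B cell markers. None passed the adjusted threshold. The 2 highest markers of each list were the T cell genes Il7r (-1.20) and Trac (-1.001) and the B cell genes Cd79b (-0.04) and Cd22 (-0.90). The other 4 B cell markers were above 0, as were 5 of the 14 T and NK cell markers. Il7r and Trac were the 2 T and NK cell markers lower at an unadjusted limma p under 0.05. Pax5, Fcer2a and Cr2, which define B cells, were below the minimum level for testing. Of 8 plasma cell markers 3 were below 0 (median 0.05, with -0.19 in set A and 0.30 in set B, Xbp1 0.23, Jchain 0.03). Mesothelial markers, of the lining of the fat pad, ran the other way, with all 8 above 0 (median 1.04, Upk3b 1.11, Krt19 0.92). Of these 7 were higher at an unadjusted limma p under 0.05, against 1.46% of all genes tested, and none passed the adjusted threshold. Of 8 adipocyte markers 5 were below 0 (median -0.03), of 4 muscle markers none was (median 0.18, Acta1 0.02, Actn3 0.80), and of 6 epididymis markers none was. The median of the epididymis markers was 1.66, with 3.13 in set A, -0.81 in set B, 0.82 without P2 and 0.50 without P5, and with Adam7 at 16.25 in P2 and 10.15 in P5. The part of these cells in the members' differences was not tested.

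**Figure D3:**
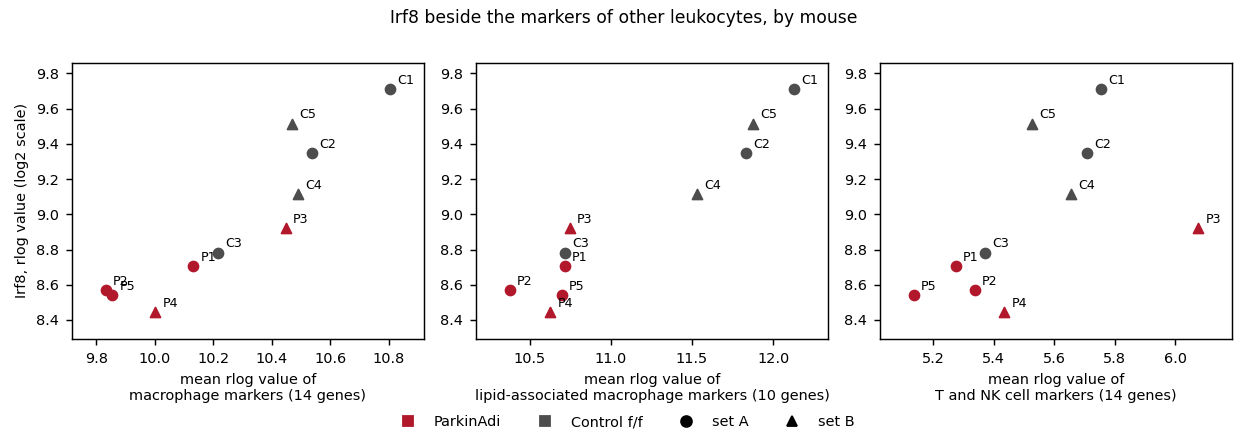
Irf8 (rlog value, log2 scale) of each mouse plotted against the mean rlog value of 14 macrophage markers, 10 lipid-associated macrophage markers and 14 T and NK cell markers, in red for ParkinAdi and grey for Control f/f, with circles for set A and triangles for set B. P1, P2, P4, P5 and C3 lie low in Irf8 and in both macrophage panels, and P3 stands apart at 6.08 in the lymphocyte panel.

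Further genes of dendritic cells were read from lists by subset. Of 63 that were tested, 37 had a difference below 0 and 26 above 0, with a median of -0.08 (-0.12 without P2 and -0.06 without P5), and none passed the adjusted threshold. At an unadjusted limma p under 0.05, 7 were lower and 1 was higher, against 3.56% and 1.46% of all genes tested. The difference was below 0 for 43.1% of all genes tested. The sets disagreed on the median, with -0.16 in set A and 0.06 in set B. Of 10 common genes 5 were below 0 (median 0.05, but -0.12 without P2 and -0.03 without P5). Itgax, the integrin CD11c that dendritic cells share with fat macrophages, had 7.87 to 8.71 in ParkinAdi, against 8.75 to 10.70 in Control f/f. The genotypes did not overlap, as for 0.757% of all genes tested in this direction. The difference was -1.36 (SE 0.34, adjusted p = 0.62), and Itgax was picked for the smallest p of its list. Ass1, an enzyme of arginine synthesis, had -0.64 and Dpp4, the peptidase CD26, 0.40, with its highest value, 10.54, in P2.

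No gene of the subset lists passed the adjusted threshold. Of 13 further type 1 genes 7 were below 0 and 6 above 0 (median -0.05, -0.12 in set A and 0.01 in set B). The 3 with the smallest p were Nfil3, a factor needed for type 1 cells, at -0.47, Wdfy4, needed for cross-presentation, at -0.48 and the receptor gene Gpr141b at -0.27. Of these only Nfil3 had an unadjusted limma p under 0.05. Of 14 type 2 genes 9 were below 0 (median -0.10), with Clec4a2, an inhibitory lectin receptor, at -0.75, Sirpa, the receptor for CD47 that macrophages also carry, at -0.59 and Clec10a, a galactose-binding lectin, at -0.35. Of 13 plasmacytoid genes 7 were below 0, with a median of -0.22 that was -0.39 in set A and 0.29 in set B. Among them Irf7, the factor behind type I interferon production, had 8.83 to 9.52 in ParkinAdi, against 8.55 to 8.94 in Control f/f, a difference of 0.42 (SE 0.17, adjusted p = 0.88), while Cox6a2 had -0.71 and Runx2 -0.70. Of 13 genes of mature, migratory cells 9 were below 0 (median -0.19, -0.35 in set A and 0.06 in set B). Cd274, the checkpoint ligand PD-L1, had -0.60 (SE 0.16, adjusted p = 0.62) with 8.42 to 8.89 in ParkinAdi, against 8.89 to 9.54 in Control f/f, overlapping by P1 and C4 alone. Cd40, the costimulatory receptor, had -0.42 and Ccl17, a chemokine that draws T cells, 0.79.

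Of 11 cytokines and receptors that govern these cells 4 were below 0, with a median of 0.03, and none passed the adjusted threshold. Csf2ra, the alpha chain of the GM-CSF receptor, had 8.79, 9.07, 8.75, 8.49 and 8.79 in P1 to P5, against 9.79, 9.29, 9.10, 9.17 and 9.41 in C1 to C5. Every ParkinAdi library lay below every Control f/f library, as for 0.757% of all genes tested, with a difference of -0.57 (SE 0.16, adjusted p = 0.62). Csf2ra was picked for the smallest p of its list. Csf2rb, the common beta chain, had -0.40 and Il3ra, the alpha chain of the interleukin 3 receptor, -0.36. Of 11 dendritic transcription factors 9 were below 0 (median -0.09, none past the adjusted threshold). Spi1, which encodes PU.1, the partner of IRF8 and IRF4 that macrophages also need, had 8.45, 8.19, 8.93, 8.21 and 8.13 in P1 to P5, against 9.45, 9.23, 8.66, 9.35 and 9.40 in C1 to C5, a difference of -0.84 (SE 0.20, adjusted p = 0.62). As for Irf8, 4 ParkinAdi libraries lay below the lowest control, which was C3, and P3 lay above it. At least 4 did so for 3.04% of all genes tested, and Spi1 was picked for the smallest p of its list. Bcl6 had -0.33 and Cbfb -0.13.

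**Figure D4:**
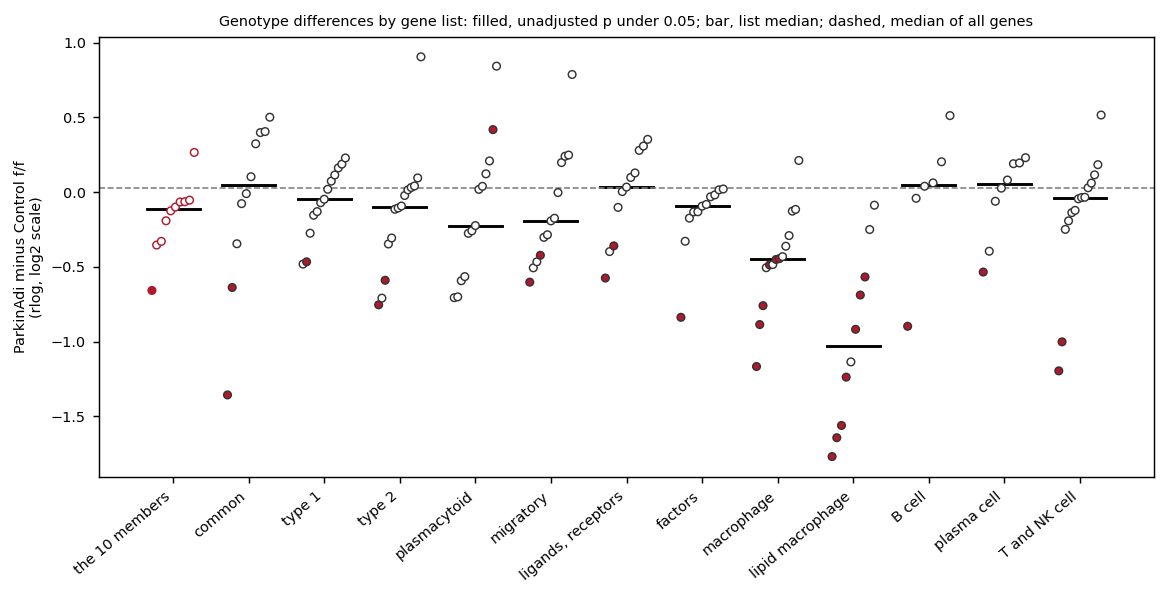
Difference of each gene, ParkinAdi minus Control f/f (rlog units, log2 scale), by gene list, for the 10 members, for further dendritic genes by subset, for ligands and receptors, for transcription factors and for markers of other leukocytes. Filled points have an unadjusted limma p under 0.05, black bars are list medians and the dashed line is the median of all genes (0.03), and the list of lipid-associated macrophages reaches lowest, with a median of -1.03.

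Levels were compared between genes per kb of exon, from the authors' mean normalized counts over all libraries of an experiment. For the vector experiment only this mean was used, so AAV8-Nqo1 pads were not set against AAV8-Control pads here, and the 2 experiments were scaled apart. Cd209a was highest in both, with 813 normalized counts per kb in the AAV8 pads and 140 in the ParkinAdi and Control f/f mice, followed by Irf8 with 401 and 78.5 and Batf3 with 244 and 52.6. Irf4 had 213 and 37.8, Zbtb46 178 and 40.4, Clec9a 114 and 25.1 and Ccr7 102 and 18.9. Siglech (41.4 and 15.4), Flt3 (42.3 and 8.89) and Xcr1 (30.3 and 7.82) were the 3 lowest in both. The median gene had 120 in the AAV8 pads and 68.6 in the Parkin experiment, so that 5 members and 2 members lay above it. The order differed only in that Irf4 stood before Zbtb46, and Flt3 before Siglech, in the AAV8 pads. As means over all libraries these levels carry no error, and neighbours in the order could not be tested.

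**Figure D5:**
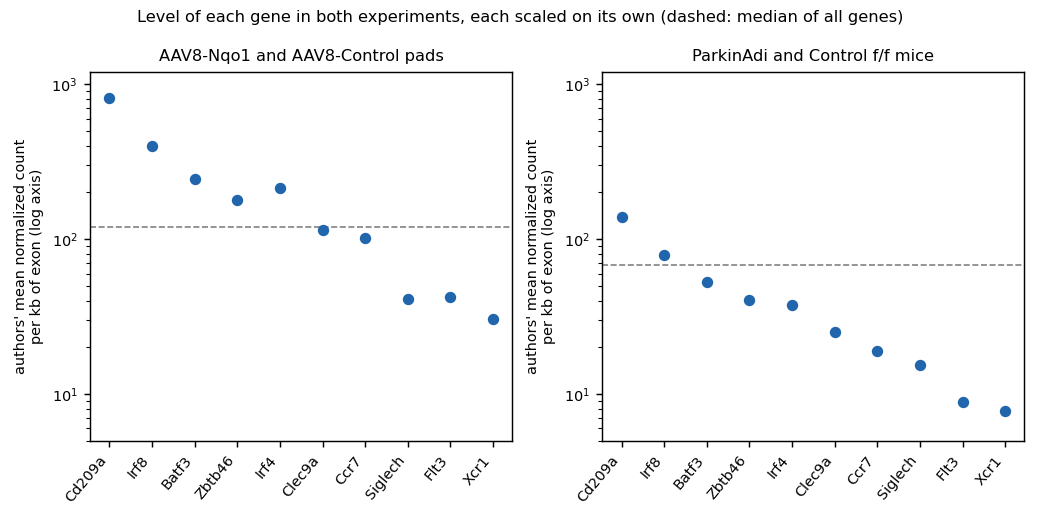
Authors' mean normalized count per kb of exon (log axis) of each gene in the AAV8-Nqo1 and AAV8-Control pads (left) and in the ParkinAdi and Control f/f mice (right), with the dashed line at the median of all genes. Both run downward from Cd209a (813 and 140) to Xcr1 (30.3 and 7.82).

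The read depth per library is unknown for rlog values, and the mean normalized count sets the precision instead. In the Parkin experiment it was 554 for Irf8, 343 for Zbtb46, 221 for Cd209a and 185 for Irf4, and 34.8 to 84.0 for the other 6 members, the lowest being Xcr1, with Ccr7 at 37.4. Differences of these low genes are shrunk by the rlog and are less precise. As a further description, Cd209a ran closest to Lgals9 (r = 0.972 over 10 libraries), Cd209d (0.928) and Rab35 (0.928). For Flt3 and Clec9a, whose values separate by library set, r is given within the 6 libraries of set A, at 0.921 for Samhd1, 0.95 for Lsm11 and 0.91 for Ikzf1 with Flt3, and at 0.86 for Abcc4, 0.938 for Gm37472 and 0.869 for Mrtfb with Clec9a.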

How the data were processed

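RNA from eWAT was sequenced from 5 ParkinAdi and 5 Control f/f mice and from pads given AAV8-Nqo1 or AAV8-Control (4 each by the labels). Reads had been aligned to GRCm38 and counted by the authors with Rsubread 2.4.2, using annotation version 97, and normalized in DESeq2 1.30.0. The deposited rlog values (log2 scale) of 21756 genes were used per library. Of the comparison tables the authors deposited, which also hold log2 fold changes and p-values that were not used, only the signal, a mean normalized count, was taken. It was divided by exon length from GENCODE (GRCm38). No columns per sample were left unassigned. The study describes fewer mice per genotype for the Parkin comparison than there are deposited libraries, and all deposited libraries were used, so the published comparison may rest on fewer of them. It also describes fewer mice per vector group than there are labelled pads. The mean counts of the vector experiment may therefore rest on fewer pads. Genes with a mean of at least 10 on the count scale (19012) were fitted with limma 3.58.1 (intensity trend, two-sided) and adjusted by Benjamini-Hochberg at 0.05. Exact permutation tests of single members were added after the data were seen. The check of the targeted gene is not reported here. The script was tested on simulated data. P-values measure the spread between libraries of different mice. In the main fit, which held no set term, this spread includes the difference between the library sets.

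The members and gene lists were chosen with earlier results of these data known. Besides the members, the text names the 3 genes with the smallest p of each dendritic list, the 2 highest of each list of other cells (for epididymis Ces5a and Adam7) and the 3 genes closest to Irf8, Flt3, Clec9a and Cd209a. Library sets were defined from the sign of each library's correlation with transcript length, not from the study's groups.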

Additional observations from a re-analysis of the deposited data

How the results depend on the processing

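No paired analysis was possible because the columns carry an animal number and the genotype but no replicate number shared between genotypes. Irf8 kept its direction under all 31 alternatives (-0.79 to -0.54, adjusted p 0.0251 to 1), as did Batf3, Flt3 and Cd209a, and passed the threshold under 2 of them. With library weights, where C2 weighed 12.4 and the others 0.302 to 2.54, 543 genes were called, among them 2 members (Irf8, adjusted p = 0.0251, and Xcr1, -0.58, adjusted p = 0.0379), and the differences of Irf4 (0.0801), Siglech (-0.0869) and Ccr7 (0.0721) changed sign. In set B alone 23 genes were called and Zbtb46 (0.0281), Xcr1 (0.00742) and Clec9a (0.0113) changed sign, and in set A alone Siglech (-0.20) and Ccr7 (0.0252) did. Leaving out each mouse in turn, with or without a set term, gave 0 to 383 genes called and 0 to 1 members called. The highest counts came without C3, at 11 genes without the set term and at 383 genes and Irf8 (adjusted p = 0.0285) with it. The same runs gave -0.184 to 0.0217 for Clec9a, -0.215 to 0.0219 for Irf4 and, for Ccr7, -0.132 to 0.0757 without the set term and -0.155 to 0.0777 with it. The cause was not tested. The stricter minimum of 50 kept 7 members and dropped Xcr1, Siglech and Ccr7. Centring, quantile normalization, no filter, no intensity trend, robust moderation and removal of the length trend called no gene. The median difference of each of 17 gene lists was compared between the main fit and several alternatives. In 279 of these comparisons it shifted by less than the SD between mice of the list's mean value. In 10 it shifted by more. The interaction, the set-term runs without a mouse and the length trend were chosen after seeing the data.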
